A study of Homo sapiens with 6 samples.

Results

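The genes described here are 10 core genes of the transforming growth factor beta (TGF-beta) pathway: the ligand gene TGFB1, the receptor genes TGFBR1 and TGFBR2, the SMAD genes SMAD2, SMAD3, SMAD4 and SMAD7, and the inhibitor of DNA binding genes ID1, ID2 and ID3. They were taken as a fixed list of symbols from the 60612 genes listed for each library, and all 10 were found and tested. No rule on their measured values picked them, but earlier results of these data were known when the list was chosen. Gene expression was measured by poly(A)-selected RNA sequencing in HCT116, an established human colorectal carcinoma line, to ask which messages change when the H/ACA small nucleolar RNA SNORA28 is overexpressed. The LV-NC group (3 libraries) was infected with a negative control lentivirus, and the LV-SNORA28 group (3 libraries) with a lentivirus that carried SNORA28. According to the methods of the study, cells were infected for 72 h before RNA was collected, and cells that overexpressed SNORA28 stably were selected with puromycin, with no mention of single clones. Nothing in the labels says that the 3 libraries of a group came from separate cultures, so the p-values measure only the spread between these libraries, which may be technical.

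TGF-beta is secreted in a latent form, and once released it joins the type II receptor TGFBR2 to the type I receptor TGFBR1, whose kinase phosphorylates SMAD2 and SMAD3. These bind the common partner SMAD4 and enter the nucleus to regulate genes, among them SMAD7, whose product shuts the receptors down. Bone morphogenetic proteins (BMPs), which belong to the same family, signal through related receptors and SMAD1, SMAD5 and SMAD9, and the ID genes are their classical targets. ID proteins lack a DNA-binding region and hold E proteins and other basic helix-loop-helix factors away from DNA, which favours proliferation over differentiation. In the colon the TGF-beta arm restrains epithelial growth. HCT116 cells are deficient in mismatch repair and are known for a frameshift in an adenine run of TGFBR2, which impairs their response to TGF-beta.

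That adenine run is shown because it limits these cells as a model of the pathway. It lies in exon 3 of 7 of TGFBR2 at chr3:30650370-30650399 on the plus strand (GRCh38 reference, which is not the sequence of these cells), and its 10 adenines, in capitals, start at base 374 of the 1701 coding bases. No variant was called from these files, and the level of TGFBR2 RNA says nothing about the protein made from it.
TGFBR2 adenine run: attatgaaggAAAAAAAAAAgcctggtgag

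The promoters of ID1, ID2 and ID3 are shown because these 3 ID genes had higher values in every LV-SNORA28 library than in any LV-NC library. TGFB1 did as well, and its promoter is described below but not shown. Each sequence holds the 250 bases before the RefSeq start on GRCh38.p14, and all 10 genes were matched in that table. Capitals mark every match, on either strand, to CAGAC (the core of the SMAD-binding element), to GGCGCC (a GC-rich SMAD element), to CCAAT (the box bound by NF-Y), to TATAA (the core of the TATA box) or to TTCNNNGAA (the STAT element).
ID1, chr20:31605039-31605288, plus strand: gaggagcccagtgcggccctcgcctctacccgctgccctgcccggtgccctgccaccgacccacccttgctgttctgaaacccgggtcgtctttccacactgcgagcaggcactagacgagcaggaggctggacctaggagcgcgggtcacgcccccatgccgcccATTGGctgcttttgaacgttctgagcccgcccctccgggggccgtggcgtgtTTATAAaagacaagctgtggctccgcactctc
ID2, chr2:8681806-8682055, plus strand: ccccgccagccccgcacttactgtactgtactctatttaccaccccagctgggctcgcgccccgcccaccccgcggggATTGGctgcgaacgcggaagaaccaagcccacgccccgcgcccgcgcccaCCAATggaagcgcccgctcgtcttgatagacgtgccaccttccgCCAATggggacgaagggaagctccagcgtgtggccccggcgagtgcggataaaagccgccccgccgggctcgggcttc
ID3, chr1:23559502-23559751, minus strand: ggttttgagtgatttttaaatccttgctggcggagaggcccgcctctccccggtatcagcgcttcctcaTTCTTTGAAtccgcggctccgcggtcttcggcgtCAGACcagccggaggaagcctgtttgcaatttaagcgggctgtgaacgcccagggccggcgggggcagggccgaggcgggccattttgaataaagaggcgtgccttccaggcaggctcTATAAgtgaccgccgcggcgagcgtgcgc

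The 3 promoters did not share one arrangement of these motifs. That of ID1 held 1 CCAAT box and 2 matches to TATAA that overlap each other on opposite strands, that of ID2 held 3 CCAAT boxes, and that of ID3 held 1 match each to CAGAC, to the TATAA core and to the TTCNNNGAA element. Among 35116 promoters of the same length, the CCAAT box was found in 32.0%, the TATAA core in 18.9%, the CAGAC core in 38.0%, the GGCGCC element in 16.4% and the TTCNNNGAA element in 6.6%, and TTCNNNGAA was the rarest of the 5. The promoter of TGFB1 held no match to any of the 5 motifs. A match describes letters in the reference and is not a bound site. The known BMP-responsive elements of ID1 lie farther upstream than this window.

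Values are FPKM, fragments per kilobase of transcript scaled to the mapped total of the library, and fold changes compare LV-SNORA28 with LV-NC on the log2(FPKM + 1) scale, which understates changes of low genes. A gene was tested if its mean over the 6 libraries was at least 1 FPKM, and called if the Benjamini-Hochberg adjusted p of limma over all 12076 genes tested was below 0.05. SNORA28 itself, the check of the labels, had 0.92, 0 and 0.64 FPKM in the control group LV-NC, against 15.01, 13.66 and 15.2 FPKM in LV-SNORA28. Of 8 epithelial markers, all had at least 1 FPKM in every library. Fibroblast markers summed to 3.24 to 4.52 FPKM in LV-NC and 3.23 to 4.17 in LV-SNORA28, with only COL1A1 of 8 above 1 FPKM and COL1A2, DCN and LUM at 0 throughout. Leukocyte markers summed to 1.24 to 2.62 FPKM in LV-NC and 2.66 to 4.33 in LV-SNORA28, with only CD68 of 8 above 1 FPKM, and endothelial markers to at most 0.23 FPKM. Mitochondrially encoded genes took 42.7% to 47.7% of all FPKM in the LV-NC libraries, against 35.9% to 38.3% in LV-SNORA28. FPKM divides by the mapped total, which these transcripts are part of, and the part of their share in the differences below was not tested beyond the rescaled values given with them. Over all genes tested the median log2 fold change was 0.0851, with 66.7% of genes above 0.

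ID1 was the only one of the 10 genes that passed the test, and it rose 1.32-fold in LV-SNORA28. ID2, ID3 and TGFB1 were also higher in all 3 LV-SNORA28 libraries than in any LV-NC library, but their adjusted p-values did not pass the threshold. The receptor genes TGFBR1 and TGFBR2 and the signal-carrying SMAD2, SMAD3 and SMAD4 had log2 fold changes between -0.06 and 0.06, and SMAD7, the inhibitor, had -0.21, with overlap between the groups for all 6. The median over the 10 genes was 0.04. Against 1 call among 10, the share called over all genes tested was 8.91% in either direction, 6.81% higher and 2.1% lower. Against 4 of 10 without overlap, all higher, the corresponding shares over all genes tested were 35.1% in either direction and 27.0% higher. Read against these shares, neither count sets the 10 genes apart from genes in general.

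**Figure D1:**
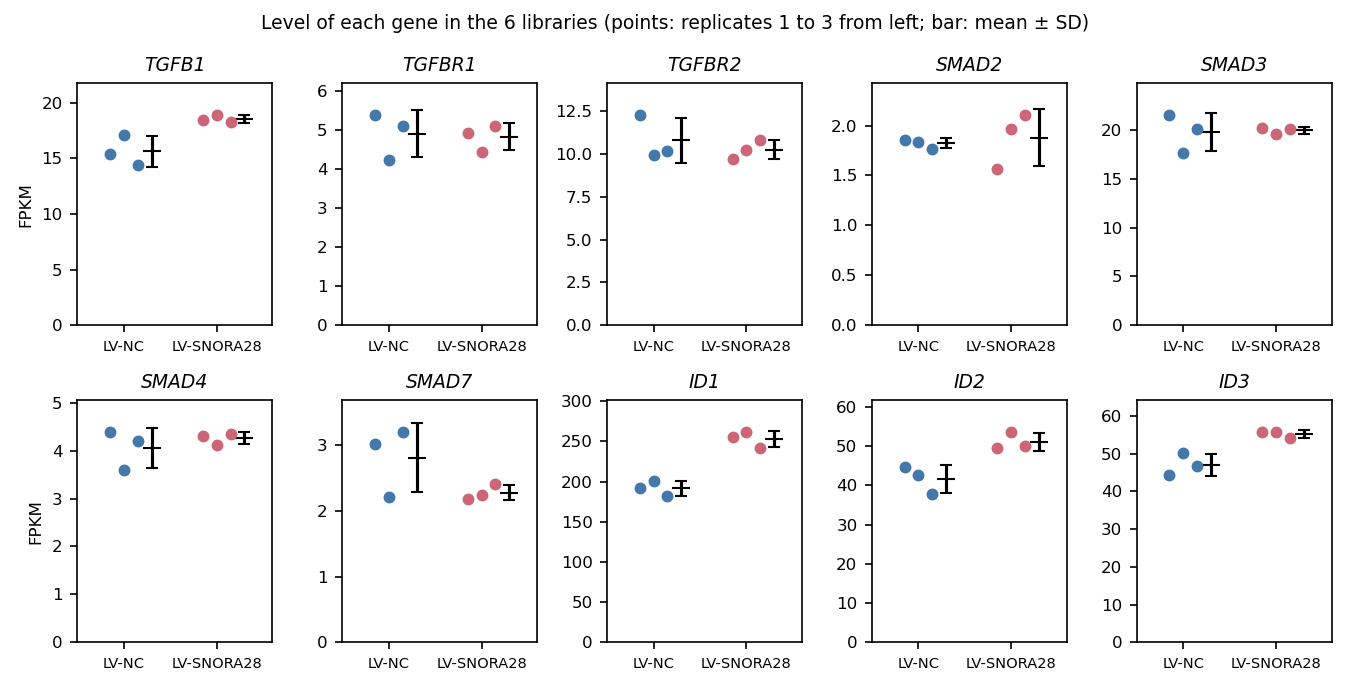
FPKM of each of the 10 genes (vertical axes from 0, one scale per gene) in the LV-NC and LV-SNORA28 libraries, with points for replicates 1 to 3 and a bar for the mean ± SD (n = 3). The points of the groups are apart for TGFB1, ID1, ID2 and ID3 and overlap for the other 6 genes.

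The ligand gene TGFB1 (ENSG00000105329, chr19:41301587-41353922 of GRCh38 in GENCODE release 44, as for all genes below, minus strand, 7 exons in the representative transcript) measured 15.35, 17.12 and 14.40 FPKM in the control group LV-NC, against 18.41, 18.93 and 18.29 FPKM in LV-SNORA28. The 3 LV-SNORA28 values lay close together and above the highest LV-NC value. The log2 fold change was 0.24 (SE 0.07, 95% interval 0.06 to 0.42), with an adjusted p of 0.1002 in limma. Exons of TGFB1 overlap those of HNRNPUL1 on the opposite strand, which averaged 42.0 ± 0.792 FPKM in LV-NC against 37.7 ± 2.38 FPKM in LV-SNORA28 (SD, n = 3 each). The libraries mark the strand, but whether it was used in counting is not given in the sources used here, and an exchange of reads between these genes was not tested.

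TGFBR1 (ENSG00000106799, chr9:99104038-99154192, plus strand, 9 exons), the type I receptor, measured 5.40, 4.24 and 5.10 FPKM in the control group LV-NC, against 4.93, 4.44 and 5.11 FPKM in LV-SNORA28. Replicate 2 was the lowest of each group, and the ranges nearly coincided. The log2 fold change was -0.02 (SE 0.10, 95% interval -0.25 to 0.22, adjusted p = 0.926 in limma). TGFBR2 (ENSG00000163513, chr3:30606601-30694142, plus strand, 7 exons), the type II receptor with the adenine run shown above, measured 12.31, 9.92 and 10.19 FPKM in the control group LV-NC, against 9.69, 10.26 and 10.83 FPKM in LV-SNORA28. Only LV-NC replicate 1 stood above the rest. The log2 fold change was -0.06 (SE 0.09, 95% interval -0.29 to 0.16, adjusted p = 0.704 in limma). Both intervals include changes in either direction, so equal levels were not shown.

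SMAD2 and SMAD3 carry the TGF-beta signal from the receptors. SMAD2 (ENSG00000175387, chr18:47808957-47931146, minus strand, 11 exons) measured 1.86, 1.84 and 1.77 FPKM in the control group LV-NC, against 1.56, 1.97 and 2.11 FPKM in LV-SNORA28, with a log2 fold change of 0.02 (95% interval -0.21 to 0.25, adjusted p = 0.898 in limma). The LV-SNORA28 libraries enclosed the whole LV-NC range. SMAD3 (ENSG00000166949, chr15:67063763-67195173, plus strand, 9 exons) measured 21.60, 17.71 and 20.15 FPKM in the control group LV-NC, against 20.27, 19.56 and 20.15 FPKM in LV-SNORA28, with a log2 fold change of 0.02 (95% interval -0.18 to 0.21, adjusted p = 0.919 in limma). Here the LV-NC libraries enclosed the LV-SNORA28 range. SMAD3 RNA was thus more abundant per length than SMAD2 RNA in all 6 libraries, a comparison that depends on the transcript model, since the representative SMAD2 transcript of GENCODE has 34626 bases and that of SMAD3 has 6464.

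SMAD4 (ENSG00000141646, chr18:51028528-51085045, plus strand, 12 exons), the common partner of both arms, measured 4.39, 3.59 and 4.19 FPKM in the control group LV-NC, against 4.31, 4.11 and 4.34 FPKM in LV-SNORA28. The log2 fold change was 0.06 (95% interval -0.14 to 0.26, adjusted p = 0.693 in limma), within the spread of the libraries. Of the 8623 windows of 150 bases in its representative transcript, 520 (6.03%) also occur in the overlapping gene ENSG00000267699, which was listed at no more than 0.49 FPKM in any library. No other gene among the 10 had such a shared window. SMAD7 (ENSG00000101665, chr18:48919853-48950965, minus strand, 4 exons), which targets the type I receptor for inactivation, measured 3.02, 2.21 and 3.20 FPKM in the control group LV-NC, against 2.18, 2.24 and 2.40 FPKM in LV-SNORA28. LV-NC replicates 1 and 3 lay above all others, while replicate 2 lay among the LV-SNORA28 values. The log2 fold change was -0.21 (SE 0.12, 95% interval -0.49 to 0.07, adjusted p = 0.294 in limma).

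ID1 (ENSG00000125968, chr20:31605283-31606515, plus strand, 2 exons), the most abundant of the 10, measured 191.62, 201.34 and 182.01 FPKM in the control group LV-NC, against 255.53, 262.02 and 241.71 FPKM in LV-SNORA28. Every LV-SNORA28 library lay above every LV-NC library, and the gap between the groups exceeded the spread within either. The mean went from 192 ± 9.67 (SD, n = 3) to 253 ± 10.4 FPKM (SD, n = 3), and the log2 fold change was 0.40 (SE 0.06, 95% interval 0.25 to 0.55), with a limma adjusted p of 0.0180. With FPKM rescaled to the sum over genes not encoded in mitochondria it was 0.37 (adjusted p = 0.01996), and with quantile normalization 0.44 (adjusted p = 0.0151). The call was lost when LV-NC replicate 3 (adjusted p = 0.0551) or LV-SNORA28 replicate 1 (0.0579), 2 (0.0773) or 3 (0.0513) was left out, with log2 fold changes of 0.36 to 0.43 in those limma fits, and in the fit with no filter on low values (0.0551). Bulk RNA cannot tell more expressing cells from more RNA per cell.

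ID2 (ENSG00000115738, chr2:8678845-8684461, plus strand, 3 exons) measured 44.74, 42.64 and 37.70 FPKM in the control group LV-NC, against 49.48, 53.64 and 50.14 FPKM in LV-SNORA28. No LV-NC library reached the lowest LV-SNORA28 library, and the log2 fold change was 0.29 (SE 0.08, 95% interval 0.10 to 0.48), with an adjusted p of 0.0702 in limma. Its antisense neighbour ID2-AS1 had between 0.5 and 0.69 FPKM in all libraries. ID3 (ENSG00000117318, chr1:23557926-23559501, minus strand, 3 exons) measured 44.33, 50.04 and 46.59 FPKM in the control group LV-NC, against 55.77, 55.77 and 54.08 FPKM in LV-SNORA28. Again the groups were apart, and the log2 fold change was 0.23 (SE 0.06, 95% interval 0.08 to 0.38), with an adjusted p of 0.0709 in limma. The unadjusted p-values were 0.00887 for ID2 and 0.00901 for ID3, and 3385 of the 12076 genes tested had an unadjusted p below 0.05. The related ID4 was barely present, at 0.04 to 0.16 FPKM.

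**Figure D2:**
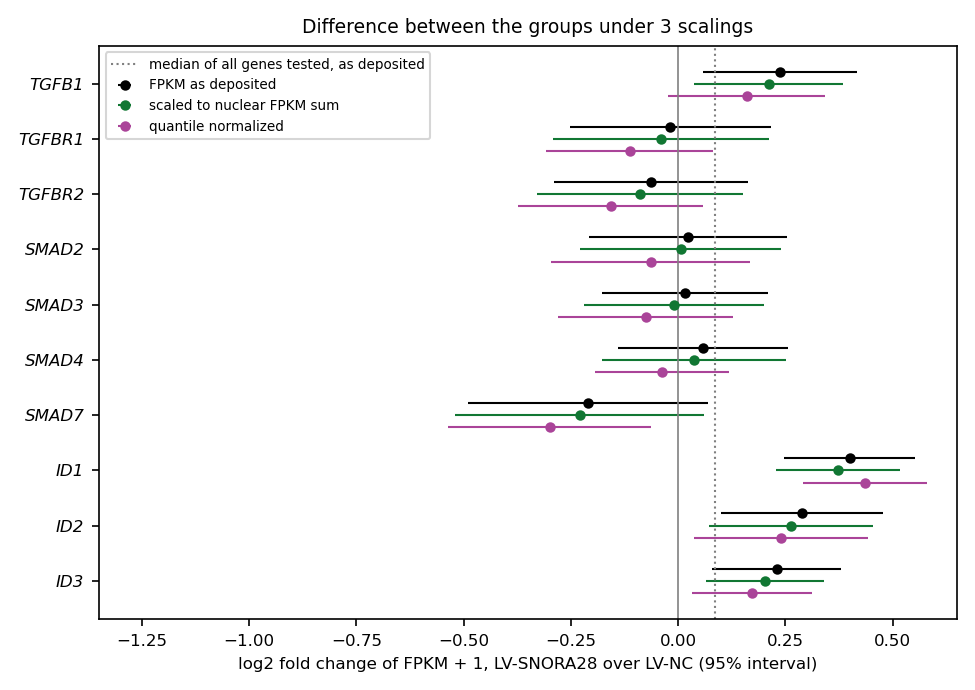
Log2 fold change of FPKM + 1 (LV-SNORA28 over LV-NC) with its 95% interval from limma for each of the 10 genes, from FPKM as deposited, rescaled to the nuclear FPKM sum and quantile normalized. ID1 lies farthest to the right under all 3 scalings, and the points of SMAD2, SMAD3 and SMAD4 lie below 0 under quantile normalization.

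The sign of the small values of SMAD2, SMAD3 and SMAD4 depended on the scaling, whereas TGFBR1 and TGFBR2 were below 0 under each scaling. Quantile normalization, which brings the median over all genes to -0.00127, gave log2 fold changes of -0.06 for SMAD2, -0.08 for SMAD3 and -0.04 for SMAD4, and the nuclear sum gave -0.01 for SMAD3. Under the same quantile normalization SMAD7 was at -0.30 (95% interval -0.54 to -0.06, adjusted p = 0.128 in limma) and TGFB1 at 0.16 (adjusted p = 0.252). ID2 and ID3 stood at 0.24 and 0.17, with adjusted p-values of 0.146 and 0.136. The split of calls over all genes moved with it, from 822 higher and 254 lower to 451 higher and 375 lower.

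The order of the levels was the same in both groups. By mean FPKM it ran from ID1 through ID3, ID2, SMAD3, TGFB1, TGFBR2, TGFBR1, SMAD4 and SMAD7 to SMAD2. In LV-NC the ranges of ID3 (44.33 to 50.04 FPKM) and ID2 (37.70 to 44.74 FPKM) overlapped, as did those of TGFBR1 and SMAD4, so these neighbours were not separated by more than their spread. In LV-SNORA28 no pair of neighbours overlapped. Among the genes tested, the mean of ID1 stood at percentile 99.0, ID3 at 95.0 and ID2 at 94.6, against 85.9 for SMAD3, 83.1 for TGFB1, 72.3 for TGFBR2, 47.4 for TGFBR1, 41.8 for SMAD4, 25.3 for SMAD7 and 15.8 for SMAD2. The ID genes were thus the abundant end of the list, and the inhibitor SMAD7 and the transducer SMAD2 the low end.

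**Figure D3:**
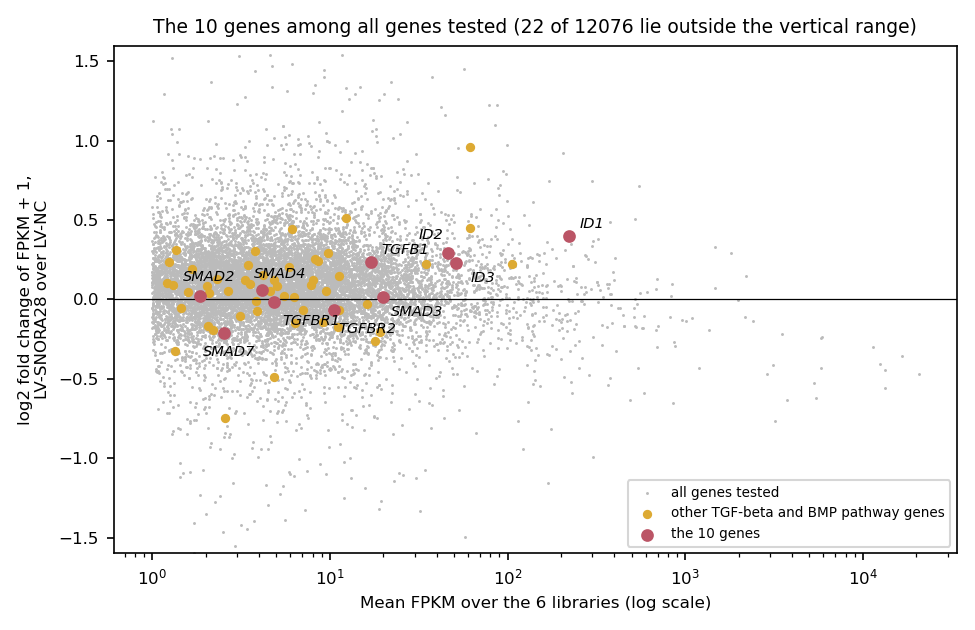
Log2 fold change of FPKM + 1 (LV-SNORA28 over LV-NC) against mean FPKM over the 6 libraries (log axis) for the 12076 genes tested, with the other TGF-beta and BMP pathway genes and the 10 genes marked. ID1, ID2, ID3 and TGFB1 lie above 0 at high levels, and TGFBR1, TGFBR2, SMAD2, SMAD3 and SMAD4 lie around 0 within the cloud of all genes. SMAD7 lies below 0, at -0.21.

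The genes whose pattern over the 6 libraries was most like that of ID1, by Pearson's r of log2(FPKM + 1), were SSU72, a phosphatase of the RNA polymerase II tail, with r = 0.998, ASMTL with r = 0.995 and PMM1, a phosphomannomutase, with r = 0.995. SSU72 measured 9.85, 10.45 and 9.36 FPKM in the control group LV-NC, against 13.38, 14.01 and 13.05 FPKM in LV-SNORA28, and so followed the same order of libraries as ID1. These r values rest on 6 libraries, all of which also entered the fold change, and 292 of the 12075 other genes tested had an r of at least 0.95.

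The wider pathway list held 115 genes, of which 61 passed the filter on low values. Apart from ID1, 1 gene rose, FKBP1A, and 1 fell, THBS1, so 3 of 61 were called where 8.91% of all genes tested were. The median log2 fold change of the 61 was 0.08, close to the 0.0851 of all genes tested, and 41 were above 0. Under quantile normalization the calls were 1 higher (ID1) and 3 lower (THBS1, AMH and SMAD6). FKBP1A encodes FKBP12, which holds type I receptors inactive until ligand arrives. It measured 43.58, 33.02 and 45.73 FPKM in the control group LV-NC, against 100.60, 84.89 and 58.92 FPKM in LV-SNORA28, a log2 fold change of 0.96 (SE 0.21, adjusted p = 0.0425 in limma). LV-SNORA28 replicate 3 was the closest to LV-NC, and the call held in only 1 of the 6 fits that left out a library, the one without that replicate (adjusted p = 0.0349). In the other 5 the adjusted p was 0.0800 to 0.127. With FPKM rescaled to the nuclear sum it was 0.0501, with quantile normalization 0.0643 and with no filter 0.117. The 4 annotated FKBP1A pseudogenes named FKBP1AP1 to FKBP1AP4 were listed at 0 in all libraries.

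Among TGF-beta and activin ligands, 3 of 14 were tested and none was called. GDF15, a stress-induced member of the family, measured 106.76, 94.83 and 90.54 FPKM in the control group LV-NC, against 113.31, 115.41 and 111.31 FPKM in LV-SNORA28 (log2 fold change 0.22, adjusted p = 0.111 in limma). TGFB1 was the one TGF-beta isoform above the filter, with TGFB2 at most at 0.12 FPKM and TGFB3 at most at 0.42 FPKM. Of 17 BMP and GDF ligands 5 were tested and none was called. BMP4, a ligand that can induce ID genes, measured 8.31, 9.38 and 11.75 FPKM in the control group LV-NC, against 9.11, 18.49 and 17.25 FPKM in LV-SNORA28, so that LV-SNORA28 replicate 1 sat within the control range (log2 fold change 0.52, adjusted p = 0.258 in limma). Without that replicate the log2 fold change was 0.81, with an adjusted p of 0.0480. BMP4 was called in only this 1 of the 6 fits that left out a library. In the others its adjusted p was 0.257 to 0.506 in limma. AMH, the anti-Müllerian hormone, measured 6.68, 6.15 and 4.78 FPKM in the control group LV-NC, against 4.28, 3.58 and 3.75 FPKM in LV-SNORA28 (log2 fold change -0.49, adjusted p = 0.0574 in limma, 0.0408 without LV-NC replicate 3 and 0.0447 with quantile normalization). The other fits that left out a library gave AMH an adjusted p of 0.0927 to 0.165 in limma, and the fit with no filter gave 0.144.

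Latency and activation of the ligand was the role group with a median below 0 by the most, at -0.19 over 6 tested of 11. THBS1 encodes thrombospondin, which releases TGF-beta from its latent complex and is itself a target of TGF-beta. It measured 3.43, 2.90 and 4.18 FPKM in the control group LV-NC, against 1.74, 1.76 and 1.49 FPKM in LV-SNORA28. All LV-SNORA28 values lay below all LV-NC values, and the log2 fold change was -0.75 (SE 0.12, adjusted p = 0.0178 in limma). Without LV-SNORA28 replicate 1, 2 or 3 the adjusted p was 0.0532, 0.0610 or 0.0697, with log2 fold changes of -0.77, -0.78 and -0.70, and with no filter it was 0.0557. FURIN, the protease that cleaves the TGF-beta precursor, had a log2 fold change of -0.20 (adjusted p = 0.174) and LTBP3, a latent TGF-beta binding protein, -0.26 (adjusted p = 0.194). The related LTBP1, named after its values were seen, was on the other side at 0.31, without overlap (adjusted p = 0.0595 in limma, and 0.0405 without a mean-variance trend), and the signs within the group were mixed. No fit that left out a library called LTBP1 (adjusted p of 0.0850 to 0.181 in limma). Of 16 extracellular antagonists 5 were tested and none was called, among them NBL1 at -0.03 (adjusted p = 0.845 in limma) and TWSG1 at 0.15 (adjusted p = 0.205).

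No receptor was called among the 8 tested of 12. Beside TGFBR1, the type I receptor ACVR1B, which serves activin, measured 5.89, 6.92 and 2.75 FPKM in the control group LV-NC, against 6.97, 6.84 and 7.29 FPKM in LV-SNORA28, a difference that came mostly from the low LV-NC replicate 3 (log2 fold change 0.45, adjusted p = 0.323 in limma). Without that replicate it was 0.12. ACVR1, a BMP type I receptor, was at 0.02 (adjusted p = 0.872) and BMPR2, the BMP type II receptor, at 0.04 (adjusted p = 0.893), and both turned negative under quantile normalization, at -0.08 and -0.05. Of 8 co-receptors and decoys 2 were tested. RGMB, a BMP co-receptor, was at -0.10 (adjusted p = 0.503 in limma) and the decoy receptor BAMBI at 0.05 (adjusted p = 0.812), the latter at -0.04 under quantile normalization.

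None of the 7 SMAD genes tested of 8 was called. SMAD5, a carrier of the BMP signal, had a log2 fold change of 0.20 (adjusted p = 0.235 in limma). SMAD6, the inhibitory SMAD of the BMP arm, singled out after its values were seen, measured 1.91, 1.36 and 1.55 FPKM in the control group LV-NC, against 1.11, 1.05 and 1.05 FPKM in LV-SNORA28, without overlap (log2 fold change -0.33, adjusted p = 0.0942, and -0.42 with an adjusted p of 0.0354 under quantile normalization in limma). No fit that left out a library called SMAD6 (adjusted p of 0.0954 to 0.225 in limma). Of 22 intracellular regulators 20 were tested and FKBP1A was the only call. STRAP, which stabilises the complex of SMAD7 with the receptor, measured 42.79, 50.85 and 63.09 FPKM in the control group LV-NC, against 63.11, 68.89 and 82.13 FPKM in LV-SNORA28 (log2 fold change 0.45, adjusted p = 0.124). Of the E proteins that ID proteins bind, likewise named after their values were seen, TCF3 had a log2 fold change of 0.29 (adjusted p = 0.0735) and TCF12 of -0.15 (adjusted p = 0.678).

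**Figure D4:**
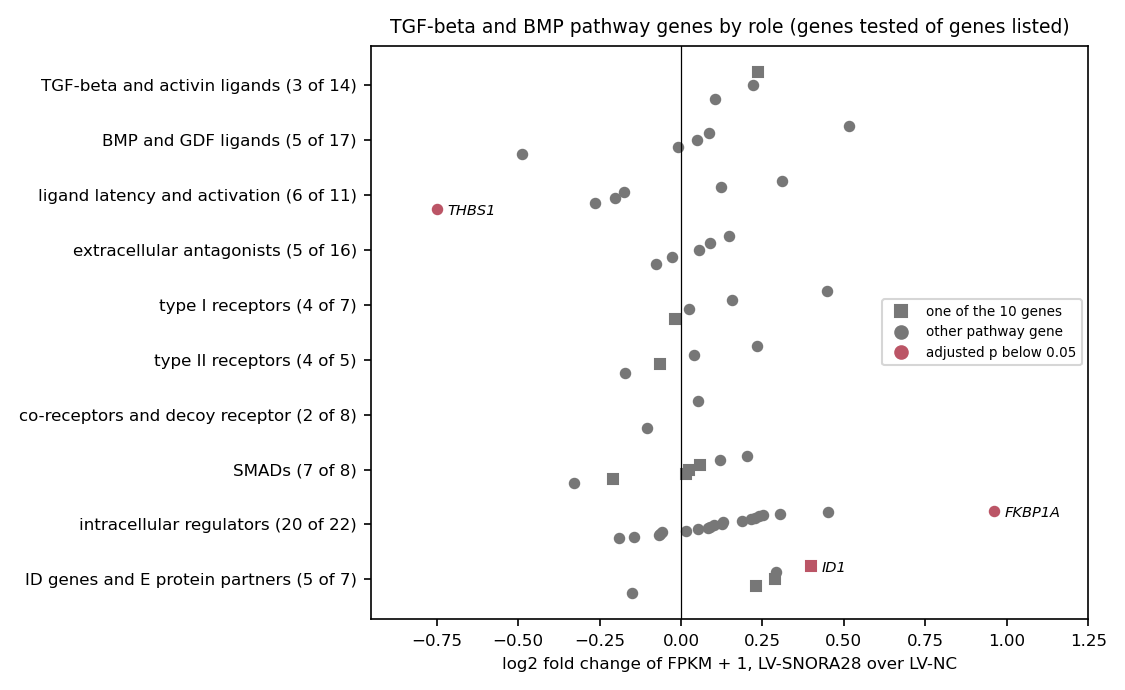
Log2 fold change of FPKM + 1 (LV-SNORA28 over LV-NC) of the 61 pathway genes tested, in rows by role, with squares for the 10 genes, circles for other genes and red for an adjusted p below 0.05. The 3 red symbols are THBS1 on the left and ID1 and FKBP1A on the right.

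Genes known to be raised by TGF-beta did not move one way. Of 19 listed 14 were tested, 1 rose, 1 fell and 12 were not called, with a median log2 fold change of 0.05, beside 6.81% called higher, 2.1% called lower and a median of 0.0851 over all genes tested. The gene that rose was JUNB. This AP-1 subunit, which many signals induce, measured 29.54, 31.54 and 27.09 FPKM in the control group LV-NC, against 45.55, 44.27 and 45.46 FPKM in LV-SNORA28 (log2 fold change 0.60, SE 0.07, adjusted p = 0.00760 in limma), and it was called in all 6 fits that left out a library. The gene that fell was THBS1, given above, and SMAD7 belongs to the same list.

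CDKN1A, the cell cycle inhibitor p21 and a shared target of TGF-beta and p53, was among the 2 most abundant genes of that list. Its detail is given here after its values were seen. It measured 43.96, 41.54 and 42.01 FPKM in the control group LV-NC, against 146.22, 152.71 and 45.20 FPKM in LV-SNORA28. LV-SNORA28 replicates 1 and 2 were thus far above LV-NC and replicate 3 was not, and the log2 fold change of 1.22 had an adjusted p of 0.134 in limma. Without that replicate it was 1.79, with an adjusted p of 0.00424. CDKN1A was called in only this 1 of the 6 fits that left out a library. In the others its adjusted p was 0.216 to 0.304 in limma. Replicate 3 exceeded the highest LV-NC value only slightly, whereas for ID1 all 3 of these libraries were well above LV-NC.

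Of 12 genes known to be raised by BMP 8 were tested, 2 rose, none fell and 6 were not called, with a median log2 fold change of 0.14, beside 6.81% of all genes tested called higher and a median of 0.0851. ID1, ID2, ID3 and SMAD7 are among these 8 and were described above, so the count and median partly repeat their values and are not separate support. The 2 that rose were ID1 and MSX1, a homeobox gene that BMPs induce. MSX1 measured 23.96, 22.42 and 20.62 FPKM in the control group LV-NC, against 30.94, 31.22 and 30.50 FPKM in LV-SNORA28, so the groups were apart (log2 fold change 0.45, SE 0.07, adjusted p = 0.0157 in limma). Without LV-SNORA28 replicate 1, 2 or 3 its adjusted p was 0.0516, 0.0677 or 0.0605, with log2 fold changes of 0.45 to 0.46. On the same list SMAD6, SMAD7 and BAMBI, feedback inhibitors that BMP also induces, had log2 fold changes of -0.33, -0.21 and 0.05, none past the test. MSX2, named after its values were seen, was at -0.01 (adjusted p = 0.918 in limma). Under quantile normalization 2 genes of this list rose and 1, SMAD6, fell.

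**Figure D5:**
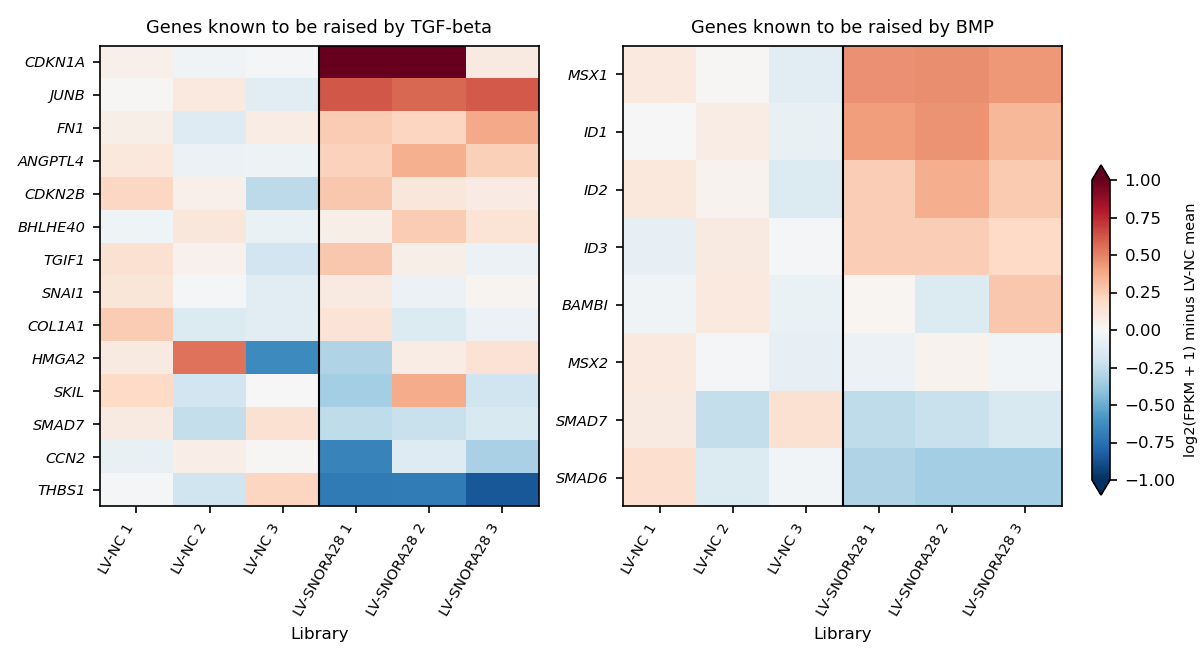
Log2(FPKM + 1) minus the LV-NC mean of the same gene in each library, for the 14 genes known to be raised by TGF-beta and the 8 known to be raised by BMP that were tested (colour scale from -1 to 1, values beyond it saturated). JUNB, FN1, ANGPTL4, CDKN2B, BHLHE40, MSX1 and the ID genes are red, some only faintly, in all 3 LV-SNORA28 libraries. THBS1, CCN2, SMAD6 and SMAD7 are blue in all 3, and CDKN1A is deep red in replicates 1 and 2 only. CDKN2B is also red in LV-NC replicates 1 and 2, BHLHE40 is red in LV-NC replicate 2 and SMAD7 is blue there. The groups overlap for CDKN2B, BHLHE40 and SMAD7.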

How the data were processed

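RNA was sequenced in 6 libraries of HCT116 cells. The authors deposited 1 table per library with Ensembl gene identifiers and FPKM values. The submitters' processing notes name cutadapt 1.9, HISAT2 2.2.1, StringTie 2.1.6, DESeq2, edgeR and build hg38, and the annotation release is not given in the sources used here. Libraries were prepared with dUTP and read as paired ends of 150 bases, per the labels. The mapped totals were not given. In 4842 single-exon genes, the low values lay near whole multiples of the best-fitting step (within 0.1) in 40.0% to 43.1% of cases. That step was the best of many tried, and the 20% that holds by chance applies to a preset step, so no excess over chance was shown. Fragment counts were not recovered, the depth is unknown and no counting interval was computed.

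Symbols were assigned to 60401 of the 60612 identifiers from GENCODE release 44 on GRCh38, which also gave coordinates. Groups came from the sample titles. Genes averaging 1 FPKM or more over the 6 libraries (12076) were fitted as log2(FPKM + 1) with limma 3.58.1 in R 4.3.3 (lmFit, eBayes with trend, group only), with two-sided p-values adjusted by the Benjamini-Hochberg method. The fit was tested on simulated data. Genes under the filter were read from a fit with no filter, over 32761 genes. Tables were summarised in Python 3.11.15 with pandas 2.3.3.

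The 10 genes, the pathway, target and marker lists and the tests were chosen with earlier results of these data known, and the lists come from general knowledge. The text names the 10 genes, every listed gene with an adjusted p below 0.05, the 2 most abundant genes of role groups with under 3 such genes, and the 3 genes most like ID1. LTBP1, SMAD6, TCF3, TCF12, TGFB2, TGFB3, ID4 and MSX2 were added after their values were seen, as were CCN2, FN1, ANGPTL4, CDKN2B and BHLHE40. CDKN1A met the rule by its level, but its detail was given after its values were seen. Alternatives were a fit without trend, quantile normalization, the nuclear FPKM sum, filters of 5 FPKM and of none, a pseudocount of 0.1, a replicate block and each library left out. No 2 libraries held identical values. The result of 1 target gene is not reported here, and the list counts leave it out.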

Additional observations from a re-analysis of the deposited data

How the results depend on the processing

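With no filter on low values, 0 of the 10 genes were called (the same fit called 397 genes in all), 0 pathway genes, 1 TGF-beta target and 1 BMP target. With a filter of 5 FPKM 1 TGF-beta target was called, of 6 tested. Replicate numbers gave no visible pairing: deviations from the group means of same-numbered libraries correlated at -0.0441, 0.0914 and 0.00983. Differently numbered libraries were not compared in this way, so these values cannot show that the libraries were unpaired. The fit with a replicate block called 510 genes in all against 1076, 1 TGF-beta target, 2 pathway genes, 2 BMP targets and 1 of the 10 genes. Of the pathway genes named, FKBP1A (adjusted p = 0.0832) and THBS1 (0.0606) lost their calls in that block fit, STRAP (0.0430) gained one and ID1 was called. Leaving out each library in turn gave 0 to 1 of the 10 genes, 0 to 3 pathway genes, 1 to 2 TGF-beta targets, 0 to 2 BMP targets and 278 to 629 genes in all, with fewer libraries in each fit. Quantile normalization reversed the sign of the log2 fold change of ACVR1 (-0.0772), BAMBI (-0.0359), BMPR2 (-0.0517), SMAD2 (-0.0637), SMAD3 (-0.0759) and SMAD4 (-0.0371), and the nuclear FPKM sum that of SMAD3 (-0.00971). Leaving out a library moved ACVR1 between -0.0214 and 0.0751, BAMBI between -0.0561 and 0.148, BMPR2 between -0.0764 and 0.186, NBL1 between -0.0893 and 0.0367, SMAD2 between -0.0340 and 0.106, SMAD3 between -0.0587 and 0.0775, SMAD4 between -0.0101 and 0.106, TGFBR1 between -0.103 and 0.0418 and TGFBR2 between -0.117 and 0.0254. The cause of these moves was not tested. Over the log2 fold changes of named genes in all alternatives, 369 kept their sign and their side of the threshold, 22 lost the call, 7 gained it and 20 changed sign. The 3 libraries per group and the unknown depth limit what could be detected.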
